A study of Mus musculus with 4 samples.

Results

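The insulin-like growth factor (IGF) system was described through 10 genes, which are 2 ligands (Igf1 and Igf2), 2 receptors (Igf1r and Igf2r) and 6 binding protein genes (Igfbp2 to Igfbp7). They were taken by gene symbol from a deposited table of 20555 genes. Each symbol had a single row, and all 10 passed the filter on low values (at least 10 scaled counts in at least 2 libraries), as did 16725 genes in all. The RNA came from bulk mammary tumours of mice with PyMT, the polyoma virus middle T antigen, in 2 groups of 2 libraries. MYC-PyMT tumours carried PyMT together with S100a8-cre and Rosa26-LSL-MYC, an allele at Rosa26 whose MYC is silent until Cre removes a stop cassette. Control-PyMT tumours are labelled with PyMT alone. S100a8 is expressed most strongly in neutrophils, so Cre is driven by a myeloid gene while the RNA is of the whole tumour. The labels give no age, strain or mouse for the libraries of a group, so p-values measure the spread between libraries, which may be technical. The series asks what MYC expression does to PyMT tumours.

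IGF1 and IGF2 are small secreted hormones related to insulin. Both activate IGF1R, a receptor tyrosine kinase that signals through insulin receptor substrates, PI3K and AKT, whereas IGF2R binds IGF2 and carries it to lysosomes. Most IGF in tissue is held by the binding proteins, which can keep it from its receptor or store it in the matrix, and proteases release it again. In the mammary gland IGF1 promotes duct growth, and IGFBP5 is known for its rise during involution, when milk-producing cells die after weaning.

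Windows of 250 bases before the RefSeq start of the gene (GRCm38.p6) are given for 3 members. Igfbp5 is shown because it had the largest change of the 10. Igfbp2 is its neighbour on chromosome 1, and the facing 3′ ends of the 2 genes are 5457 bases apart. Igf2r is shown because its window held the most copies of CACGTG, the E-box that MYC binds with its partner MAX. Capitals mark CACGTG, and each sequence runs 5′ to 3′ on the strand of its gene.
Igfbp5 (chr1:72874866-72875115, minus strand): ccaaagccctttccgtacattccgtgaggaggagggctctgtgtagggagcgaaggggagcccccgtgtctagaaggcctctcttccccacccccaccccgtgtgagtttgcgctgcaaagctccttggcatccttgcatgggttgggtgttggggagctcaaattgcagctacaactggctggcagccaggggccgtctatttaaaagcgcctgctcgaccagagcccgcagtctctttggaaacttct
Igfbp2 (chr1:72824230-72824479, plus strand): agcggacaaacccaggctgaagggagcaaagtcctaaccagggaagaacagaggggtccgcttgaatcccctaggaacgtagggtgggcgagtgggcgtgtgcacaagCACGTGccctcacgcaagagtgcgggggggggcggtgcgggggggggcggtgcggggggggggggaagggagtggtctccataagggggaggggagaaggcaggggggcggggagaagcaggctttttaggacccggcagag
Igf2r (chr17:12769707-12769956, minus strand): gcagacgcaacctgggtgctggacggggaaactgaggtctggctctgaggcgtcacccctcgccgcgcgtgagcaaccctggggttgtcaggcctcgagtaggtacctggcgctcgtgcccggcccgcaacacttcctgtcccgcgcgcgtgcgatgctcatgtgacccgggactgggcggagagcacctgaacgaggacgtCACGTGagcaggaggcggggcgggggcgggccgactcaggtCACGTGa

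All 10 members matched the RefSeq windows, 14 windows in all because Igf2 has 4 and Igfbp2 has 2. CACGTG, which reads the same on both strands, occurred once in an Igfbp2 window, beginning 142 bases before the start, and 2 times in that of Igf2r, beginning 48 and 7 bases before it. The other 12 windows, Igfbp5 among them, did not hold these letters. Of 32851 mouse windows of this length, 6.02% held the motif. TTCNNNGAA, the core of STAT sites, was searched on both strands too, and no window of a member held it, against 7.02% of all windows. TATAAA, the core of the box of that name, was searched on both strands and found in 12.4% of all windows. Among the members it was in the windows of Igfbp4 and Igfbp6, beginning 28 and 148 bases before the start. These are matches of exact letters only. None of the 3 motifs overlapped another in these windows.

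The deposited values are scaled counts, which are read counts divided by a size factor for each library and not by gene length. Every value was a whole multiple of 1 step per library. If a step is 1 read, the totals were 34190913 and 31783846 reads in MYC-PyMT replicates 1 and 2, and 32245080 and 32879311 in Control-PyMT replicates 1 and 2. Mouse Myc itself had 3215 and 2815 scaled counts in MYC-PyMT and 1832 and 2820 in Control-PyMT, a difference that did not pass (log2 0.40, SE 0.23, limma adjusted p = 0.172). Whether this row counts RNA of the Rosa26 allele is not given in the sources used here. It therefore does not show whether that allele was expressed. The 8 luminal epithelial markers summed to 115455 and 121377 scaled counts in MYC-PyMT and to 142791 and 139172 in Control-PyMT, with none at 0. Over all tested genes 24.6% fell and 23.3% rose, and of these markers 3 fell, none rose and 5 did not pass. None passed without Control-PyMT replicate 1, without MYC-PyMT replicate 1 or without the variance trend, and 1 passed without MYC-PyMT replicate 2. The labels give an RNA integrity number of 3.3 to 9.6 over the samples and no value for each, so the part of RNA quality in any result was not tested.

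In MYC-PyMT tumours 5 of the 6 binding protein genes were lower, Igf1 was higher, and Igf2, both receptors and Igfbp6 did not pass the test. By limma on log2(scaled count + 1) with Benjamini-Hochberg adjustment over all tested genes, 6 of the 10 members passed at 0.05, which is 60%. Over all tested genes 47.9% passed, so the count of members is near the background. Of the members 5 fell (50%, background 24.6%) and 1 rose (10%, background 23.3%). All 5 that fell were among the 6 binding proteins. The median log2 change was -0.32 over the 10 members and -0.96 over the binding proteins, against -0.02 over all tested genes. Groups did not overlap for 8 members (80%), where 75.7% of all tested genes also did not overlap. Without MYC-PyMT replicate 1 only 3 members passed, 1 higher and 2 lower. In such fits the lone library of a group is assumed to vary like the other group.

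**Figure D1:**
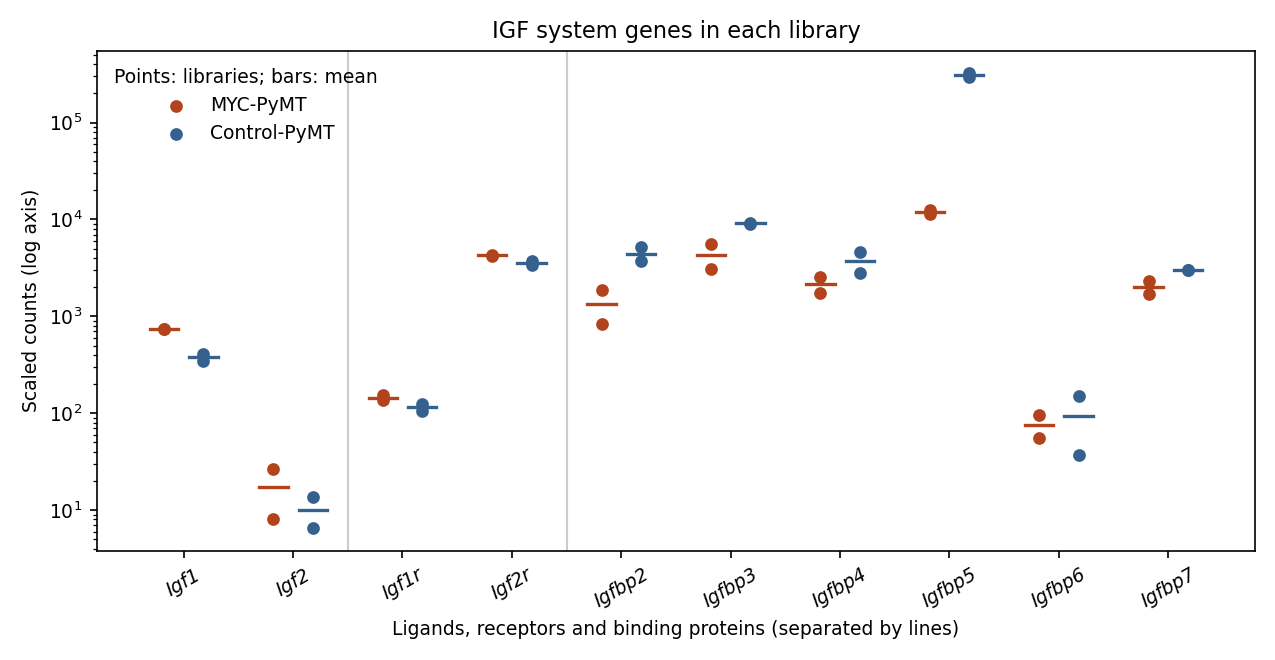
Scaled counts (log axis) of the 10 IGF system genes, with each library as a point and the group mean as a bar, MYC-PyMT left of Control-PyMT. Igfbp5 had 11305 and 12643 in MYC-PyMT, against 293679.5 and 321751 in Control-PyMT, and Igf2 and Igfbp6 are the members whose groups overlap.

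Igf1 (ENSMUSG00000020053.18, chromosome 10, 87858265 to 87937042, GRCm38), the ligand that acts through IGF1R, had 743 and 733 scaled counts in MYC-PyMT and 349 and 409 in Control-PyMT. Both MYC-PyMT libraries lay above both Control-PyMT libraries. Igf1 averaged 738 ± 6.86 in MYC-PyMT and 379 ± 42.8 in Control-PyMT (SD, n = 2 each), 1.95-fold higher (log2 0.96, SE 0.22, limma adjusted p = 0.00526). This rise passed under each of the 13 alternatives run (log2 0.85 to 1.15). Fibroblasts and macrophages are known sources of Igf1. Their marker counts stand beside 23.3% of all tested genes that rose and 24.6% that fell. Of 12 fibroblast markers 2 rose, 2 fell and 8 did not pass, with sums of 23904 and 34630 scaled counts in MYC-PyMT and 23727 and 33859 in Control-PyMT. Of 10 macrophage markers 1 rose, 3 fell and 6 did not pass, with sums of 16433 and 19290 in MYC-PyMT and 16195 and 18654 in Control-PyMT, and no marker of either list was at 0. The fibroblast split moved to 0 higher and 4 lower without Control-PyMT replicate 1, to 3 higher and 2 lower without Control-PyMT replicate 2, and to 0 higher and 2 lower under TMM scaling, with no level filter or without the variance trend. Of the macrophage markers 1 rose and 1 fell without Control-PyMT replicate 2, MYC-PyMT replicate 1 or MYC-PyMT replicate 2. For the summed levels of both lists the 2 groups spanned nearly the same range, which is a measurement of RNA in bulk tissue. Markers that rose and markers that fell offset each other in these sums. The sums therefore do not show that either cell type was unchanged. Fewer cells of a type and less RNA per cell cannot be told apart in such samples.

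Igf2 (ENSMUSG00000048583.16, chromosome 7, 142650766 to 142666816), the fetal ligand that is expressed from the paternal copy only, was scarce. It had 8.05 and 26.4 scaled counts in MYC-PyMT and 6.55 and 13.6 in Control-PyMT. These are 8 and 24 steps in MYC-PyMT and 7 and 16 in Control-PyMT. The groups overlapped and the change did not pass (log2 0.59, SE 0.63, limma adjusted p = 0.47). Igf2 overlaps its antisense Igf2os and, on its own strand, the microRNA gene Mir483 and the protein-coding gene Gm49394. Igf1 overlaps its antisense Igf1os. None of these has values of its own here. How the authors' counting used strand, or treated reads in overlapping genes, is not given in the sources used here. The part of these overlaps in the low Igf2 values was not tested.

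Igf1r (ENSMUSG00000005533.9, chromosome 7, 67952827 to 68233668), the signalling receptor, had 153 and 136 scaled counts in MYC-PyMT and 107 and 123 in Control-PyMT. Igf2r (ENSMUSG00000023830.13, chromosome 17, 12682406 to 12769664), the clearance receptor that also sorts lysosomal enzymes, had 4214 and 4298 in MYC-PyMT and 3372 and 3715 in Control-PyMT. For both receptors the MYC-PyMT libraries were the higher ones and the groups did not overlap, which was so for 75.7% of all tested genes. The log2 change was 0.33 for Igf1r (SE 0.29, limma adjusted p = 0.373) and 0.27 for Igf2r (SE 0.18, adjusted p = 0.242), and neither passed. Igf2r overlaps Airn, an imprinted antisense RNA, which had 149.9 and 156 scaled counts in MYC-PyMT and 240.3 and 203 in Control-PyMT. Per kilobase of exon, Igf2r stood above Igf1r by a ratio of 49.7 and 56.9 in MYC-PyMT and of 57.1 and 54.4 in Control-PyMT. With the longest transcript as length, the ratio was 35.4 and 40.5 in MYC-PyMT and 40.6 and 38.7 in Control-PyMT. The ratio of the receptors thus had overlapping groups with either length, and its size depended on the length used.

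Igfbp5 (ENSMUSG00000026185.8, chromosome 1, 72857932 to 72874884, minus strand), whose product binds IGF and attaches to the matrix, had 11305 and 12643 scaled counts in MYC-PyMT and 293679.5 and 321751 in Control-PyMT. In Control-PyMT replicates 1 and 2 it ranked 4 and 1 among all genes and took 0.974% and 1.15% of the library. In MYC-PyMT replicates 1 and 2 it ranked 416 and 390 and took 0.0329% and 0.0362%. Igfbp5 averaged 11974 ± 947 in MYC-PyMT and 307715 ± 19849.5 in Control-PyMT (SD, n = 2 each), 25.7-fold lower in MYC-PyMT (log2 -4.68, SE 0.23, limma adjusted p = 2.06e-06). Across the 13 alternatives the log2 change ran from -4.79 to -4.60, and the call held in each. Among all tested genes, 170 had a log2 change at or below this one, Igfbp5 included.

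Summed over each list, markers of myoepithelial and smooth muscle cells were lower in the same libraries, while single markers went both ways. Of 8 basal and myoepithelial markers 5 fell, 1 rose and 2 did not pass, with sums of 11599 and 25567 scaled counts in MYC-PyMT and 43314 and 41240.1 in Control-PyMT. Of 8 pericyte and smooth muscle markers, which share 2 genes with that list, 4 fell, 1 rose and 3 did not pass, with sums of 8089 and 10385 in MYC-PyMT and 44721 and 47042 in Control-PyMT. Over all tested genes 24.6% fell and 23.3% rose. Krt14 (log2 1.24) and Rgs5 (log2 0.72) were the markers that rose, and neither passed without the variance trend. Krt5 and Krt17 did not pass (log2 0.53 and 0.71). Acta2 and Cnn1, which both fell, are the shared genes. Acta2 alone had 1954 and 2502 scaled counts in MYC-PyMT and 19203 and 20245 in Control-PyMT, so it weighs heavily in both sums. Cspg4, Notch3 and Kcnj8 of the pericyte and smooth muscle list did not pass (log2 0.33, -0.68 and 0.08). The sums thus do not stand for all markers of these cells. No marker of either list was at 0, and the part of these markers in the fall of Igfbp5 was not tested. Over 13464 other genes with a mean of at least 50, the 3 nearest to Igfbp5 in centred log2 values over the 4 libraries were Wdr72, Oxtr and Scrn1, at distances of 0.18, 0.27 and 0.27. Their log2 changes were -4.64, -4.50 and -4.49, against -4.68 for Igfbp5. With 2 libraries per group this distance mostly compares the size of the group change, and it shows no further shared pattern. Oxtr is also one of the 8 basal and myoepithelial markers. Wdr72 had 10.1 and 12.1 scaled counts in MYC-PyMT and 309.6 and 288 in Control-PyMT. Oxtr, the oxytocin receptor through which myoepithelial cells contract, had 102 and 94.5 scaled counts in MYC-PyMT and 2185 and 2299 in Control-PyMT.

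Igfbp2 (ENSMUSG00000039323.18, chromosome 1, 72824503 to 72852474, plus strand), a binding protein that also meets integrins through an RGD motif, had 825 and 1864 scaled counts in MYC-PyMT and 3686 and 5221 in Control-PyMT. The groups did not overlap, but the MYC-PyMT libraries differed from each other more than for Igfbp5. It was 3.31-fold lower in MYC-PyMT (log2 -1.82, SE 0.34, limma adjusted p = 0.00181). The change was -1.23 without MYC-PyMT replicate 1 and -2.41 without MYC-PyMT replicate 2, and passed in both.

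Igfbp3 (ENSMUSG00000020427.11, chromosome 11, 7206086 to 7213923), the main IGF carrier of blood plasma, had 3073 and 5615 scaled counts in MYC-PyMT and 9250.0 and 8988 in Control-PyMT. Both MYC-PyMT libraries were lower, replicate 1 the more so. Igfbp3 averaged 4344 ± 1797 in MYC-PyMT and 9119 ± 185 in Control-PyMT (SD, n = 2 each), with a log2 change of -1.13 (SE 0.26, limma adjusted p = 0.00602). The call ended without MYC-PyMT replicate 1 (log2 -0.70, adjusted p = 0.084, with 1.72e-05 to 0.084 over the 13 alternatives).

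Igfbp4 (ENSMUSG00000017493.12, chromosome 11, 99041244 to 99054392), an inhibitor of IGF action that the protease PAPP-A cleaves, had 1763 and 2525 scaled counts in MYC-PyMT and 2836 and 4655 in Control-PyMT. Its highest MYC-PyMT value lay close under its lowest Control-PyMT value. It fell with a log2 change of -0.78 (SE 0.27, limma adjusted p = 0.0341). This call ended without Control-PyMT replicate 2 (log2 -0.43), without MYC-PyMT replicate 1 (-0.52) and without the variance trend (-0.78), with adjusted p = 0.00529 to 0.218 over the 13 alternatives.

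Igfbp7 (ENSMUSG00000036256.13, chromosome 5, 77349240 to 77408041), a distant relative that binds IGF weakly and is abundant in vessels, had 1702 and 2336 scaled counts in MYC-PyMT and 3000.1 and 3026 in Control-PyMT. Both MYC-PyMT libraries were lower (log2 -0.60, SE 0.20, limma adjusted p = 0.0359). The call ended without Control-PyMT replicate 1 (log2 -0.60), Control-PyMT replicate 2 (-0.59) or MYC-PyMT replicate 1 (-0.37) and without the variance trend, with adjusted p = 0.00725 to 0.385 over the 13 alternatives. Of 10 endothelial markers 6 rose, 1 fell and 3 did not pass, where 23.3% of all tested genes rose and 24.6% fell. The endothelial markers summed to 5091 and 6372 in MYC-PyMT and to 2942 and 3943 in Control-PyMT, with none at 0. The number that rose was 3 without Control-PyMT replicate 1 and 4 without MYC-PyMT replicate 2 or the variance trend. The part of these markers in the fall of Igfbp7 was not tested. Igfbp7 overlaps Polr2b, a gene on the opposite strand.

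Igfbp6 (ENSMUSG00000023046.6, chromosome 15, 102144362 to 102149511), which prefers IGF2 to IGF1, had 55.4 and 95.6 scaled counts in MYC-PyMT and 37.4 and 149 in Control-PyMT. The MYC-PyMT libraries lay between the Control-PyMT libraries, and the change did not pass (log2 -0.04, SE 0.58, limma adjusted p = 0.959). Its direction turned without Control-PyMT replicate 2 (log2 0.94) and without MYC-PyMT replicate 1 (0.35).

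**Figure D2:**
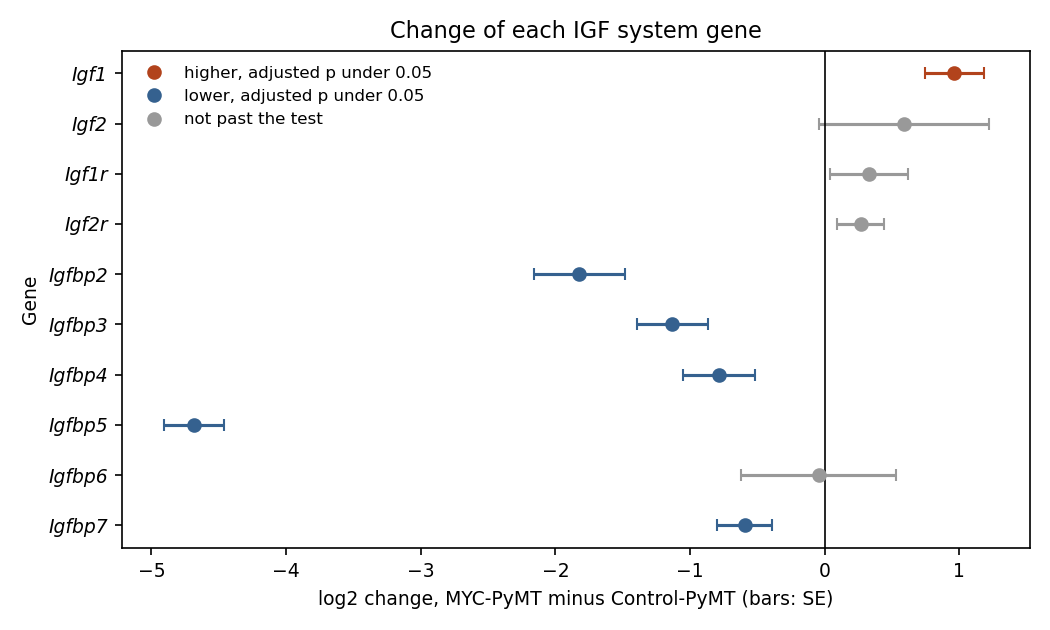
Log2 change of each IGF system gene, MYC-PyMT minus Control-PyMT, with the standard error from limma as bars and colours for the call. Igfbp5 stands at -4.68, the other 4 binding protein genes that fell lie between -1.82 and -0.60, and Igf1, at 0.96, is the member that rose.

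Levels of different genes were compared only as scaled counts per kilobase of exon (the union of annotated exons). In MYC-PyMT the order of the mean level was Igfbp5, Igfbp7, Igfbp3, Igfbp2, Igfbp4, Igf2r, Igf1, Igfbp6, Igf1r and Igf2, running from 1994 for Igfbp5 to 3.01 for Igf2. From Igfbp5 down to Igf2r each gene overlapped its neighbour in that order, as did Igf1 and Igfbp6. In Control-PyMT the order was Igfbp5, Igfbp3, Igfbp7, Igfbp2, Igfbp4, Igf2r, Igfbp6, Igf1, Igf1r and Igf2, from 51235 for Igfbp5 to 1.76 for Igf2. There only Igfbp7 with Igfbp2 and Igfbp6 with Igf1 overlapped. Igfbp5 thus stood above all other members by more than the spread in Control-PyMT, and overlapped Igfbp7 in MYC-PyMT. The order of neighbours depends on the length used. With the longest transcript as length, the share of Igfbp3 in the summed binding protein level was 22.2% and 27.1% in MYC-PyMT, against 24.8% and 22.8% for Igfbp7 and 33.0% and 24.6% for Igfbp5. In Control-PyMT it put Igfbp2, at 4.79% and 6.13%, above Igfbp7, at 4.25% and 3.87%.

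The 6 binding protein genes together had 5168 and 7498 scaled counts per kilobase in MYC-PyMT and 57006 and 62962 in Control-PyMT. Of the difference between the group means, 91.8% was Igfbp5. It made up 36.4% and 28.1% of the summed level in MYC-PyMT and 85.8% and 85.1% in Control-PyMT. Without Igfbp5 the sum reached 3285 and 5393 in MYC-PyMT and 8108 and 9390.1 in Control-PyMT, and the groups still did not overlap. Igfbp7 made up 27.2% and 25.8% in MYC-PyMT and 4.35% and 3.98% in Control-PyMT, although its own level was lower in MYC-PyMT. Igfbp3 made up 19% and 23.9% in MYC-PyMT and 5.18% and 4.56% in Control-PyMT.

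Set against the ligands, the summed binding protein level per kilobase was 67.6 and 95.4 times the summed level of Igf1 and Igf2 in MYC-PyMT and 1568 and 1440.4 times in Control-PyMT. Leaving Igfbp5 out, the multiple stood at 43.0 and 68.6 in MYC-PyMT and 223 and 215 in Control-PyMT. Igf1 per kilobase was 8.23 and 9.12 times Igf1r in MYC-PyMT and 5.55 and 5.64 times in Control-PyMT. These are ratios of RNA in whole tumours, not of protein, and were not tested. They also depend on the length used. With the longest transcript, the summed binding protein level was 53.4 and 78.0 times the ligands in MYC-PyMT and 1157 and 1069 times in Control-PyMT. Igf1 held nearly all of the ligand RNA as counted. Per kilobase of exon it stood at 53.3 and 16.1 times Igf2 in MYC-PyMT and 30.8 and 17.4 times in Control-PyMT.

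**Figure D3:**
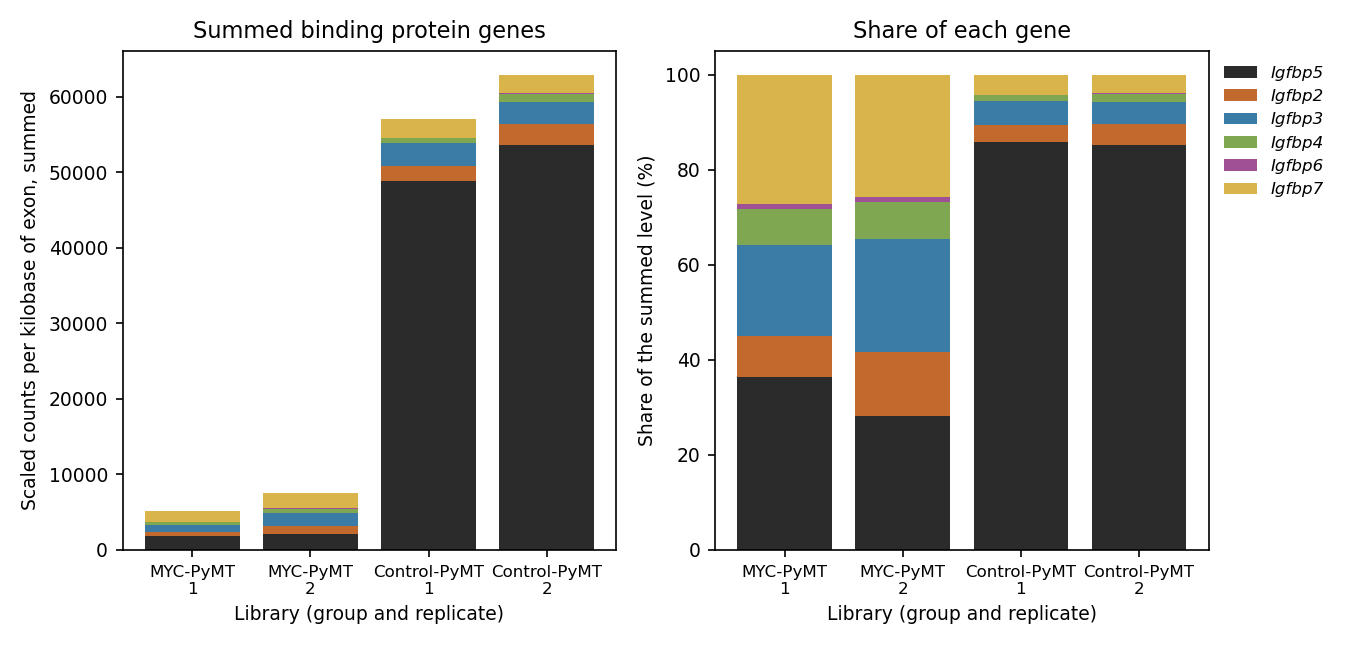
Summed level of the 6 binding protein genes in scaled counts per kilobase of exon (left) and the share of each gene in percent (right), 1 bar per library. The MYC-PyMT bars reach 5168 and 7498 and the Control-PyMT bars 57006 and 62962, and the share of Igfbp5 is 36.4% and 28.1% in MYC-PyMT against 85.8% and 85.1% in Control-PyMT.

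The genes around the members were followed in lists of relatives, proteases, receptor adaptors, the growth hormone axis, imprinted genes and hormone receptors. Igfals, the acid-labile subunit that joins IGF and IGFBP3 or IGFBP5 in a plasma complex, fell to 76.5 and 190.1 scaled counts in MYC-PyMT, against 405 and 718 in Control-PyMT (log2 -2.15, SE 0.43, limma adjusted p = 0.00256). Leaving out Control-PyMT replicate 2 ended it (log2 -1.74). Insr, the insulin receptor, had 1586 and 1549.5 in MYC-PyMT and 1853 and 1722 in Control-PyMT, which did not pass (log2 -0.19). Of 10 genes for IGFBP proteases and their inhibitors 9 were tested, of which 4 fell, none rose and 5 did not pass. Over all tested genes 24.6% fell and 23.3% rose. The median of the list was -0.56, against -0.02 over all tested genes. The inhibitors of PAPP-A, Stc1 and Stc2, did not pass (log2 0.43 and 0.06). Pappa itself fell to 17.1 and 14.3 scaled counts in MYC-PyMT, against 85.1 and 47.6 in Control-PyMT. Htra1, a secreted serine protease with an IGFBP-like domain, fell to 184 and 241, against 1399 and 1574 in Control-PyMT (log2 -2.81). The metalloprotease genes Mmp7 and Mmp3 fell with log2 changes of -1.89 and -0.84. The call of Mmp7 ended without Control-PyMT replicate 1 (log2 -1.37), and that of Mmp3 without Control-PyMT replicate 2 (-0.75) or MYC-PyMT replicate 2 (-0.64).

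Downstream of the receptor, 28 of 29 genes of adaptors, PI3K, AKT and their brakes were tested. Of these 8 fell, 1 rose and 19 did not pass, with a median of -0.31, so most of the pathway did not pass and the share that fell was near the 24.6% of all tested genes. Without MYC-PyMT replicate 2, 5 fell and none rose. Irs1, the main docking protein of IGF1R and the insulin receptor, fell to 51.3 and 48.4 scaled counts in MYC-PyMT, against 704 and 866 in Control-PyMT (log2 -3.94, SE 0.27, limma adjusted p = 9.33e-06). Irs2, its relative, fell to 55.4 and 38.5, against 89.8 and 255 in Control-PyMT (log2 -1.69). Leaving out Control-PyMT replicate 2 ended the call of Irs2 (-0.94). Both docking proteins were thus lower, Irs1 with a wide gap between the groups. Grb14, an adaptor that inhibits insulin receptor signalling, fell with a log2 change of -2.17. The gene that rose was Rptor, a subunit of mTOR complex 1, with 1343 and 1393 in MYC-PyMT and 758 and 944 in Control-PyMT (log2 0.69). Its call ended when MYC-PyMT replicate 1 or MYC-PyMT replicate 2 was left out, and without the variance trend.

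Growth hormone raises Igf1 in liver through its receptor, JAK2 and STAT5, and the same STAT5 proteins answer prolactin in the gland. All 6 genes of this list fell (median -1.45), where 24.6% of all tested genes fell. Without the variance trend 5 of them passed. Ghr, the growth hormone receptor, had 1584 and 1579 scaled counts in MYC-PyMT and 3760.4 and 2929 in Control-PyMT (log2 -1.07, SE 0.20, limma adjusted p = 0.00164). Jak2 had 837 and 917 in MYC-PyMT and 3305 and 2924 in Control-PyMT (log2 -1.83). The feedback inhibitors Socs2 and Cish, which STAT5 induces, fell with log2 changes of -2.32 and -2.01, and Stat5a and Stat5b with -0.93 and -0.88. In this list the genes fell while Igf1 rose in the same libraries.

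Of the IGF2 RNA-binding protein and imprinted growth genes 12 of 13 were tested, of which 4 rose, none fell and 8 did not pass (median 0.48), where 23.3% of all tested genes rose. Under upper-quartile scaling 2 of them fell, and 1 fell with the replicate block, a pseudocount of 5 or no variance trend and without Control-PyMT replicate 1 or MYC-PyMT replicate 2. H19, the imprinted noncoding RNA beside Igf2 that shares its enhancers, rose to 2661 and 5205 scaled counts in MYC-PyMT, against 623 and 389 in Control-PyMT (log2 2.92, SE 0.32, limma adjusted p = 0.000106). Igf2 stayed scarce in both groups, as given above. Mest rose to 276 and 460.5 in MYC-PyMT, against 96.3 and 60.3 in Control-PyMT, and Phlda2, an imprinted growth restrainer of placenta, to 187 and 327, against 44 and 74.7 in Control-PyMT. Dlk1, the other gene that rose, was low, with 16.1 and 22 scaled counts in MYC-PyMT and 0 and 2.55 in Control-PyMT.

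Estrogen receptor signalling is known to raise several IGF system genes in breast cancer cells, Irs1 and Igfbp4 among them. All 7 tested genes of the estrogen and progesterone receptor list fell (median -4.19), where 24.6% of all tested genes fell. Tnfsf11 was not tested. Greb1, an estrogen-induced gene, had 8.05 and 20.9 scaled counts in MYC-PyMT and 206 and 318 in Control-PyMT (log2 -4.19, SE 0.46, limma adjusted p = 0.000104). Pgr, Wnt4 and Foxa1 fell with log2 changes of -7.88, -5.99 and -5.09. These genes were lower in the libraries in which Igfbp5 and Irs1 were lower, and their part in those changes was not tested.

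**Figure D4:**
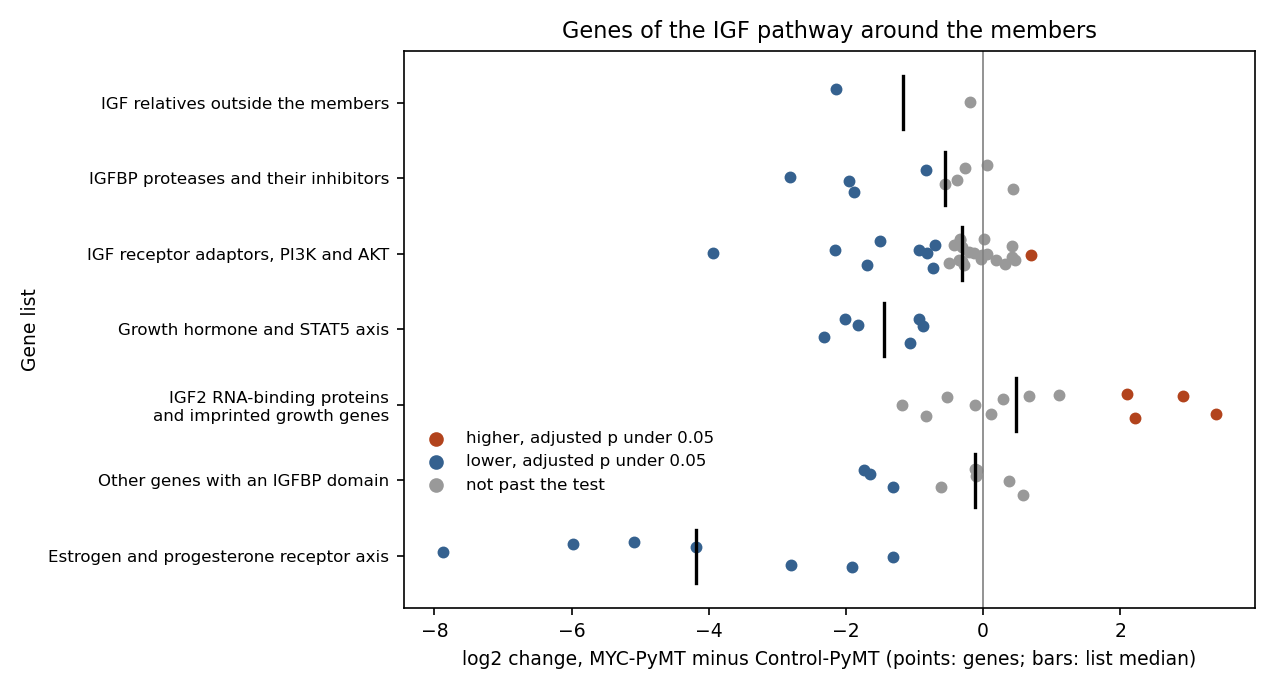
Log2 change, MYC-PyMT minus Control-PyMT, of each tested gene in the 7 lists around the IGF members, with colours for the call and a bar at the list median. All points of the growth hormone and estrogen receptor lists lie below 0, while in the adaptor list 19 of 28 genes did not pass and Irs1 lies apart at -3.94.

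**Figure D5:**
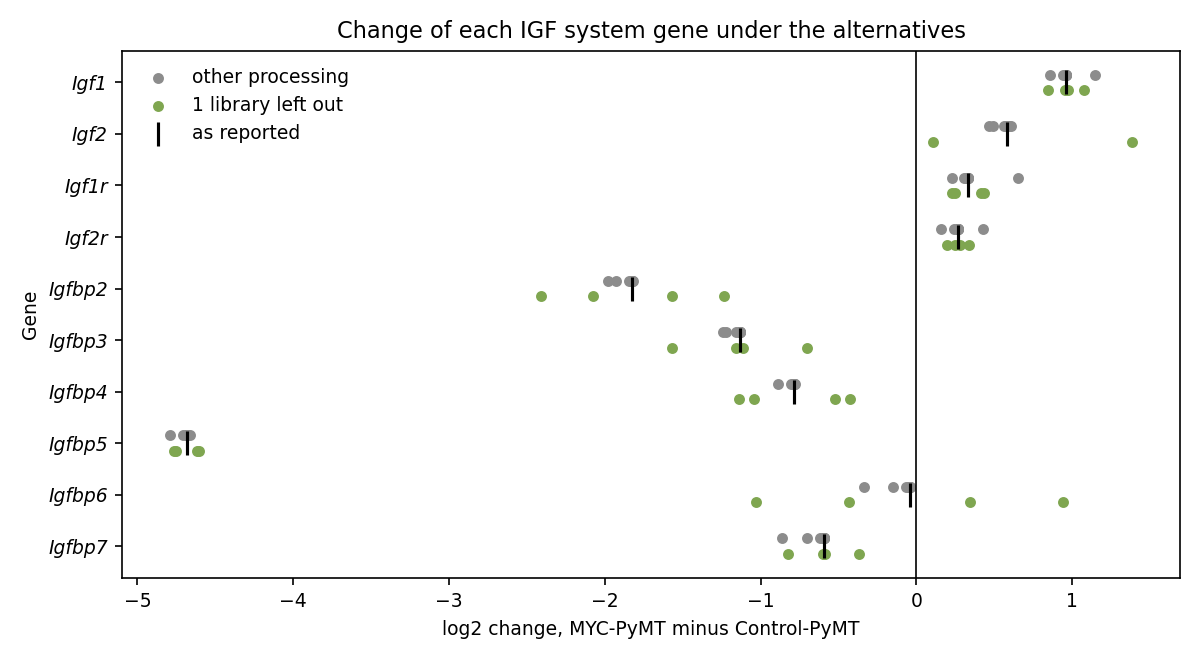
Log2 change of each IGF system gene as reported (black tick), under other processing (upper dots) and with 1 library left out (lower dots). Igfbp5 stays between -4.79 and -4.60 and Igf1 between 0.85 and 1.15, while Igfbp6 lies on both sides of 0, from -1.03 to 0.94.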

How the data were processed

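Poly(A)-selected stranded TruSeq libraries were sequenced from 4 tumour samples, and the authors' processing used HISAT2, DESeq2 and the mouse build mm10 (GRCm38.p5), per the submitters' processing notes. Which program counted the reads, with which annotation and strand setting, is not stated in these sources. The deposited values are a signal that is never negative, scaled counts with 1 column per library. All values (100%) were whole multiples of 1 step per library within 0.001 steps.

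The analysis used limma 3.58.1 in R 4.3.3 on log2(value + 1), with a variance trend, over genes with at least 10 scaled counts in at least 2 libraries, two-sided. P-values were adjusted by Benjamini and Hochberg and read at 0.05. Fold changes on this scale understate changes of low genes. An exact test of 2 against 2 libraries cannot go below p = 0.33. The fit was also run on simulated counts, with the same spread setting for all genes and far fewer changed genes than here. The outcome of that run is not given and is not used to judge the results. Positions and exon lengths came from GENCODE mouse release 21 (GRCm38), where 20463 gene IDs matched and 92 did not. Promoter windows came from RefSeq.

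Members, 7 pathway lists and 8 marker lists were chosen with earlier results of these data known, and describe the data only. Igfbp1, Ins1, Ins2 and Mpo were not analysed here. Each member was named, and from each pathway list up to 4 called genes by size of change (higher group averaging 50 or more), or the 2 with the smallest p. A gene that this rule names is not reported here. Rptor, Dlk1, Stc1, Stc2, Stat5a, Stat5b, Cyr61 and Ctgf were named outside this rule, after their values were seen. So were the single markers Krt14, Krt5, Krt17, Rgs5, Acta2, Cnn1, Cspg4, Notch3 and Kcnj8. Alternatives were other pseudocounts, filters and scalings, no variance trend, a replicate block, leaving out each library, and removal of the trend with exon length. The count tests planned as alternatives were not run.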

Additional observations from a re-analysis of the deposited data

How the results depend on the processing

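Igf1, Igfbp2 and Igfbp5 kept their direction and their call under each of the 13 alternatives, and Igf1r and Igf2r never passed. Members past the test numbered 3 to 6 when 1 library was left out, against 6 as reported, and 4 without the variance trend. Igfbp6 ran from -1.03 without Control-PyMT replicate 1 to 0.94 without Control-PyMT replicate 2, turned to 0.35 without MYC-PyMT replicate 1, and Insr turned to 0.08 (0.0776 before rounding) with the length trend removed; the cause was not tested. With a library left out, all genes changed numbered 5824 to 6556, against 8010, relatives 0 to 1, proteases 3 to 4, adaptors 5 to 10, IGFBP-domain genes 2 to 4 and imprinted genes 4 to 5. With no level filter 2 relatives passed, since more genes were tested, and with a filter of 50 only 2 proteases, since fewer were. With the longest transcript as length the share of Igfbp5 was 82.7% in Control-PyMT, against 85.4%. In MYC-PyMT replicates 1 and 2 that share was 33.0% and 24.6%, against 36.4% and 28.1%. Leaving out a library only returns the share in the other library of its group. These shares were 28.1% and 36.4% in MYC-PyMT and 85.1% and 85.8% in Control-PyMT, so this is no further check. With upper-quartile scaling the median of all tested genes was -0.12, against -0.02, and no member changed direction.

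The replicate numbers do not pair libraries from the labels, and same-numbered libraries did not deviate together (correlation over genes -0.09). A replicate block gave 8039 changed genes and the same 6 members called. Igf2 could not be fitted under a filter of 50, nor without Control-PyMT replicate 2 or MYC-PyMT replicate 2, where it is under the filter. The count tests of edgeR and DESeq2 on whole reads were not run. Igf2 rests on 7 to 24 steps a library, and its log2 change ran from 0.11 to 1.38 over the 10 alternatives that tested it.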

Other observations

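Some other secreted proteins carry an IGFBP-like domain at their start, among them the CCN family. Of 9 such genes tested 3 fell, none rose and 6 did not pass, with a median log2 change of -0.12. Wisp1 (CCN4) had 155 and 236 scaled counts in MYC-PyMT and 556 and 656 in Control-PyMT (log2 -1.65, SE 0.27, limma adjusted p = 0.000961). Wisp2 (CCN5), an estrogen-induced member, had 155 and 181 in MYC-PyMT and 569 and 555 in Control-PyMT (log2 -1.74). Kazald1 had 68.4 and 49.5 in MYC-PyMT and 119 and 179 in Control-PyMT (log2 -1.31). Leaving out Control-PyMT replicate 2 or MYC-PyMT replicate 2 ended the call of Kazald1 (log2 -1.02 and -1.08). Cyr61 (CCN1) and Ctgf (CCN2) were not past the test. Of all tested genes 24.6% fell, so the 3 in 9 that fell here are not read as a link to the binding protein genes.

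Markers of neutrophils and adipocytes were followed too. Their counts stand beside 23.3% of all tested genes that rose and 24.6% that fell. Of 8 neutrophil markers tested 5 rose, none fell and 3 did not pass, with sums of 3878.5 and 5665 scaled counts in MYC-PyMT and 3328 and 1240.9 in Control-PyMT, and Elane and Camp were at 0 in at least 1 library. The number that rose was 3 without MYC-PyMT replicate 1 or with a level filter of 50, and 2 without MYC-PyMT replicate 2. Of 8 adipocyte markers 1 rose, 1 fell and 6 did not pass, with sums of 5672 and 4924 in MYC-PyMT and 1523 and 5218 in Control-PyMT. Without Control-PyMT replicate 2, 5 rose and none fell, and without Control-PyMT replicate 1, 1 rose and 3 fell. The part of either list in the results of the IGF genes was not tested.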
